A study of Mus musculus with 15 samples.

Results

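The 8 genes described here are 7 that mark the B lineage (Ighm, Cd79a, Cd79b, Igll1, Vpreb3, Pax5 and Ms4a1) and Stap1, in the trigeminal ganglia (TG) of mice with an injured cornea. They were rows found by symbol among the 55573 genes of the count table, and all 8 were present. These 8 genes were selected on their values in the same 15 samples, compared sample by sample over all 3 treatments, so their levels and differences are given as a description, with no test. The samples came from male CD1 mice, 10 weeks old, whose right cornea had lost its central epithelium and anterior stroma. Every group, controls included, carried this injury, and no uninjured ganglion is part of the comparison. For 12 days the eye received vehicle, RvD6-standard (resolvin D6, a docosanoid made from docosahexaenoic acid) or RvD6-isomer (a stereoisomer of it) 3 times a day, and then the right TG was taken. Each group held 5 ganglia, numbered 1 to 5 for vehicle, 6 to 10 for RvD6-standard and 11 to 15 for RvD6-isomer. The dose of the lipids on the eye in this experiment was not given in the sources used here. P-values rest on the spread between ganglia within groups. Except where 2 groups were fitted alone, that spread was estimated over all 3 groups together. A p-value thus also depends on the group outside its comparison.

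B cells arise in the bone marrow, where early precursors carry a pre-B receptor made of the mu heavy chain and a surrogate light chain, and later cells replace the surrogate with a rearranged light chain. On the surface the mu heavy chain is held by a pair of signalling chains, encoded by Cd79a and Cd79b, and the transcription factor Pax5 keeps cells committed to the lineage. Stap1 encodes an adaptor protein with a PH and an SH2 domain that is a substrate of the Tec kinase downstream of the B cell receptor, and it is not restricted to B cells. Sensory neurons and glia make up most of a TG and are not known for using the B cell receptor genes.

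Promoter windows from RefSeq (GRCm38.p6), 250 bases before the annotated start, matched 4 of the 8 members by symbol, namely Cd79a, Igll1, Vpreb3 and Pax5. Those of Igll1, Cd79a and Vpreb3 are shown as the sequence before the RefSeq start of members whose mean level was higher with RvD6-standard than with vehicle. The mean of Pax5 was also higher (1.79 against 0.567 CPM), but its window, which held none of the motifs below, is not shown. Capitals mark matches on either strand to 3 short motifs, which were CCCNNGGG (EBF1), CAGNTG (the E box of E2A) and GAGGAA (PU.1). The windows are chr16:16863986-16864235 on the minus strand for Igll1, chr7:24897247-24897380 on the plus strand for Cd79a and chr10:75948050-75948299 on the plus strand for Vpreb3, each written 5′ to 3′. For Cd79a the last 116 bases were left out because they lie in an exon of the count annotation. The Vpreb3 window lies before the RefSeq start but inside the gene span given below (75943057 to 75949657), in none of the counted exons. For Vpreb3 the 2 annotations thus place the start differently.
Igll1: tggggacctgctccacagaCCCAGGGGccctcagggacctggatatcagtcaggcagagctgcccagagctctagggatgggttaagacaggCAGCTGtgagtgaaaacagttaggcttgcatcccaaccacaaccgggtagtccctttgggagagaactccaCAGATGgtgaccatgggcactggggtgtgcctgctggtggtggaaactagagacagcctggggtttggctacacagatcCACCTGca
Cd79a: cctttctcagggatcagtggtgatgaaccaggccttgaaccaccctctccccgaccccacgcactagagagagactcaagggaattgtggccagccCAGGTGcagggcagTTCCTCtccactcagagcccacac
Vpreb3: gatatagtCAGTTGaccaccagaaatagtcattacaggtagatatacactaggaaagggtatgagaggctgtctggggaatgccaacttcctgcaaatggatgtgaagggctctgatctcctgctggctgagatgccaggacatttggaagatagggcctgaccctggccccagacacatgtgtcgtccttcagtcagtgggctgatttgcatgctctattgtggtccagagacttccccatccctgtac
In Igll1 the window held 1 EBF1 match, which began 231 bases before the start, and 3 E boxes at 158, 87 and 8 bases before it. Cd79a held an E box at 154 bases and a PU.1 match at 140 bases, and Vpreb3 an E box at 242 bases. No letters of the 3 motifs were found in the Pax5 window. No 2 of these matches overlapped. The full 250 bases before the start were searched for each gene, Cd79a included. Of 32851 windows of 250 bases, 11.8% held CCCNNGGG, 44.8% CAGNTG and 23.3% GAGGAA, so single matches are common, and a match describes the letters only.

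The libraries held 4125962 (RvD6-isomer ganglion 15) to 9903396 (vehicle ganglion 1) counts. Levels are given in CPM, which are counts scaled to a common library size after TMM scaling, a correction for differences in composition. Of the 55573 genes, 16567 had enough counts to be tested. The 10 sensory neuron markers listed, such as Tubb3, Prph and Calca, were counted in every group, with summed levels of 13560 to 15460 CPM in vehicle, 8351 to 14270 in RvD6-standard and 12060 to 15700 in RvD6-isomer ganglia. Ganglion 15 stood apart from the other RvD6-isomer ganglia in many blood cell genes, and results that rest on it are given with and without it. In bulk tissue fewer cells of a type and less RNA per cell cannot be told apart.

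The heavy chain gene and its signalling partners had the most counts. Ighm, on chromosome 12 (113418558 to 113422730, minus strand, GRCm38), encodes the constant region of the mu heavy chain. Its levels were 27.5, 25.6, 7.47, 60.3 and 18.4 CPM in vehicle ganglia 1 to 5, from 273, 206, 67, 439 and 160 counts. In RvD6-standard ganglia 6 to 10 they were 80.4, 59.1, 50.1, 54.5 and 128.2 CPM, and in RvD6-isomer ganglia 11 to 15 they were 23.8, 26.2, 28.8, 30.1 and 115.1 CPM. Thus 4 of the 5 RvD6-isomer ganglia lay between 23.8 and 30.1 CPM, within the vehicle range, and ganglion 15 was the second highest of all 15. Means were 27.8 ± 19.8 (SD, n = 5), 74.5 ± 32.2 and 44.8 ± 39.4 CPM in that order of groups. All groups overlapped, with RvD6-standard and vehicle meeting only through vehicle ganglion 4.

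Cd79a (chromosome 7, 24897381 to 24902197, plus strand) and Cd79b (chromosome 11, 106311341 to 106314762, minus strand) encode the Ig-alpha and Ig-beta chains. Cd79a stood at 0.604, 1.49, 0.780, 5.22 and 0.573 CPM in vehicle ganglia 1 to 5. It stood at 2.60, 4.66, 5.46, 5.14 and 7.80 CPM in RvD6-standard ganglia 6 to 10 and at 0.467, 1.98, 1.54, 0.578 and 3.85 CPM in RvD6-isomer ganglia 11 to 15. Every RvD6-standard ganglion was above 4 of the 5 vehicle ganglia, and vehicle ganglion 4 was the exception that made the groups overlap. For Cd79b the vehicle values were 4.63, 2.48, 0.892, 19.7 and 5.62 CPM. The RvD6-standard values were 8.24, 9.08, 21.1, 6.51 and 28.1 CPM, and the RvD6-isomer values 2.81, 2.53, 0.768, 1.73 and 23.3 CPM. Ganglia 4, 10 and 15 again led their groups, and RvD6-isomer ganglia 11 to 14 were lower than all RvD6-standard ganglia.

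Igll1 and Vpreb3 are genes of the surrogate light chain family. Igll1 (chromosome 16, 16860671 to 16863985, minus strand) encodes lambda 5, the part of the pre-B receptor that takes the place of a light chain constant region, and it resembles the lambda constant genes, so reads shared with those would not have been counted. It had 0, 14, 0, 0 and 4 counts in vehicle ganglia 1 to 5, or 0, 1.74, 0, 0 and 0.459 CPM. The RvD6-standard ganglia 6 to 10 had 44, 20, 6, 5 and 16 counts (4.77, 2.45, 1.17, 0.857 and 2.23 CPM), and the RvD6-isomer ganglia 11 to 15 had 0, 0, 3, 0 and 37 counts (0, 0, 0.384, 0 and 8.38 CPM). Transcripts of this precursor gene were therefore counted in 5 of 5 RvD6-standard ganglia and in 2 of 5 in each other group, and the highest level of all was in ganglion 15. Vpreb3 (chromosome 10, 75943057 to 75949657, plus strand) encodes a protein that binds mu chains inside precursor cells. It had 0, 1, 6, 13 and 8 counts in vehicle, 30, 7, 13, 9 and 38 in RvD6-standard and 6, 0, 9, 5 and 14 in RvD6-isomer ganglia. These are 0, 0.124, 0.669, 1.79 and 0.917 CPM, then 3.25, 0.859, 2.53, 1.54 and 5.29 CPM, then 0.935, 0, 1.15, 0.723 and 3.17 CPM. Of the RvD6-standard ganglia 6, 8 and 10 exceeded all vehicle ganglia, as did RvD6-isomer ganglion 15, and ganglia 7 and 9 were within the vehicle range.

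Pax5 (chromosome 4, 44524757 to 44710487, minus strand) was the sparsest of the B lineage members for its length. It had 1, 1, 0, 19 and 0 counts in vehicle, 11, 10, 14, 1 and 26 in RvD6-standard and 0, 12, 0, 0 and 13 in RvD6-isomer ganglia, which gave 0.101, 0.124, 0, 2.61 and 0 CPM, 1.19, 1.23, 2.73, 0.171 and 3.62 CPM, and 0, 1.32, 0, 0 and 2.95 CPM. Vehicle ganglion 4 and RvD6-isomer ganglia 12 and 15 held nearly all counts of their groups. Exons of the antisense genes Gm12462 and 5730488B01Rik cover 1.41% and 7.18% of the exon bases of Pax5, and reads there could not be assigned without strand. Ms4a1 (chromosome 19, 11249675 to 11266241, minus strand) encodes CD20, a membrane protein of B cells from the pre-B stage on. It had 15, 0, 9, 2 and 19 counts in vehicle, 39, 1, 25, 10 and 58 in RvD6-standard and 6, 0, 4, 24 and 27 in RvD6-isomer ganglia. The levels were 1.51, 0, 1.00, 0.275 and 2.18 CPM, then 4.23, 0.123, 4.87, 1.71 and 8.08 CPM, then 0.935, 0, 0.512, 3.47 and 6.12 CPM. Here vehicle ganglion 4 was not high, and RvD6-standard ganglion 7 had a single count, so the groups overlapped widely.

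**Figure D1:**
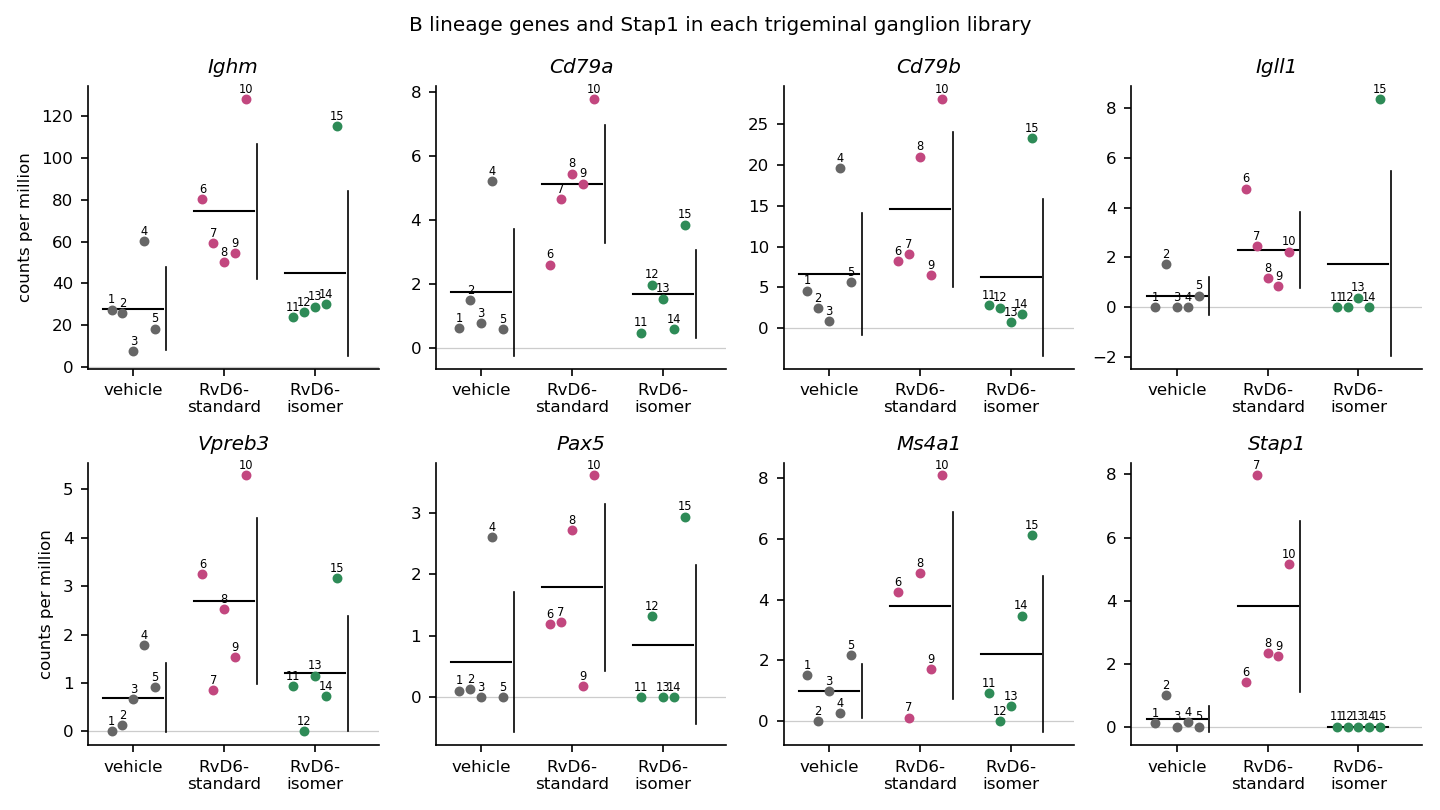
Level of each of the 8 genes in CPM (linear axis) in every library, with the replicate number above each point, a horizontal line at the group mean and a vertical line of 1 SD on either side. Ganglion 15 stands above the other RvD6-isomer ganglia for the 7 B lineage genes and at 0 for Stap1, where the 5 RvD6-standard ganglia (1.41 to 7.97 CPM) lie above every other library.

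Stap1 (chromosome 5, 86071746 to 86106125, plus strand) had another pattern. It had 1, 8, 0, 1 and 0 counts in vehicle ganglia 1 to 5, which is 0.101, 0.994, 0, 0.137 and 0 CPM. In RvD6-standard ganglia 6 to 10 it had 13, 65, 12, 13 and 37 counts, which is 1.41, 7.97, 2.34, 2.23 and 5.15 CPM. None of the 5 RvD6-isomer ganglia had a count. The RvD6-standard group did not overlap either of the others, and its highest ganglion was 7, which among the 15 ranked 3 for Igll1, 5 for Ighm, Cd79a and Cd79b, 6 for Pax5, 10 for Vpreb3 and 13 for Ms4a1. In ganglion 15 the 7 B lineage genes summed to 162.9 CPM with Stap1 at 0, and in vehicle ganglion 4 they summed to 89.9 CPM with 1 Stap1 count. A count of 0 over the RvD6-isomer group allows a mean of up to 0.0866 CPM (3 counts over its summed library size, counting error only). Against that limit Stap1 was at least 44.1-fold lower with RvD6-isomer than with RvD6-standard, if the RvD6-standard mean is taken as exact. This bound leaves out the spread between the RvD6-standard ganglia. The mean with RvD6-standard was 3.82 ± 2.72 CPM (SD, n = 5) against 0.246 ± 0.422 CPM in vehicle, a ratio of 15.5. Of the 10 vehicle counts 8 were in ganglion 2. Without it 2 counts remained in 4 vehicle ganglia, a mean of 0.0595 CPM, which is below the limit for RvD6-isomer, so no bound between RvD6-isomer and vehicle is given. The fitted log2 difference between RvD6-standard and vehicle was 3.90 with and 5.69 without ganglion 2, and the ratio of the pooled levels without it was 68.8, with an exact 95% interval of 18.7 to 574 that covers counting error only. The interval leaves out the spread between ganglia, which was 12 to 65 counts with RvD6-standard. Since Stap1 was selected on these values, it is not a test.

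Per kilobase of exon, which allows genes to be set beside each other, the mean level with vehicle was highest for Ighm (14.8 ± 10.5 CPM per kb, SD, n = 5), then Cd79b (4.65 ± 5.24), Cd79a (1.19 ± 1.36), Vpreb3 (0.814 ± 0.834), Igll1 (0.203 ± 0.348), Ms4a1 (0.161 ± 0.144), Pax5 (0.0641 ± 0.129) and Stap1 (0.0396 ± 0.0679). Neighbours in this order differed by less than the SD of the higher of them. By that measure only Ighm was separated, from the genes below Cd79b, but it ignores that the genes were read in the same ganglia. Within each vehicle ganglion Ighm exceeded Cd79b, Cd79b exceeded Cd79a, and Cd79a exceeded Stap1. The genes from Vpreb3 down did not keep the same order in every vehicle ganglion. With RvD6-standard the order began in the same way, at 39.5 ± 17.1 for Ighm, 10.2 ± 6.64 for Cd79b, 3.52 ± 1.28 for Cd79a and 3.14 ± 2.00 for Vpreb3. Igll1 followed at 1.06 ± 0.712, and Stap1 and Ms4a1 shared a level (0.615 ± 0.437 and 0.615 ± 0.495 CPM per kb) above Pax5 (0.202 ± 0.155). By mean level Stap1 was thus the lowest of the 8 genes in vehicle, though not in every ganglion there, and with RvD6-isomer. It stood at the level of Ms4a1 with RvD6-standard.

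The fitted differences of the members describe the same values on a log2 scale. RvD6-standard minus vehicle came to 1.42 (SE 0.49) for Ighm, 1.57 (SE 0.68) for Cd79a, 1.14 (SE 0.81) for Cd79b, 2.37 (SE 1.41) for Igll1 and 1.94 (SE 0.96) for Vpreb3. It was 1.67 (SE 1.32) for Pax5, 1.90 (SE 1.08) for Ms4a1 and 3.90 (SE 1.02) for Stap1. RvD6-isomer minus vehicle ranged from -0.14 for Cd79b to 1.90 for Igll1 among the 7 B lineage genes. The direct comparison of the lipids, RvD6-isomer minus RvD6-standard, was negative for all 7, from -1.62 (SE 0.69, 95% interval -3.07 to -0.18) for Cd79a to -0.47 (SE 1.33, -3.27 to 2.32) for Igll1. For Ighm it was -0.75 (-1.76 to 0.27) and for Cd79b -1.28 (SE 0.82). These intervals are wide. The 3 comparisons share samples, so they are not separate evidence.

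All 8 members passed the filter on low counts, Pax5 with 1, 2 and 2 ganglia above the filter level of 1.29 CPM in vehicle, RvD6-standard and RvD6-isomer. Stap1 passed only through the RvD6-standard group, where 5 of 5 ganglia were above that level, against 0 of 5 in each other group. It was the only member above all vehicle ganglia in all 5 RvD6-standard ganglia, a pattern of 2.15% of the genes tested, and the only one with all RvD6-isomer ganglia below all RvD6-standard ganglia (1.1%). Nothing is read from these shares, since the members were selected on these contrasts.

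**Figure D2:**
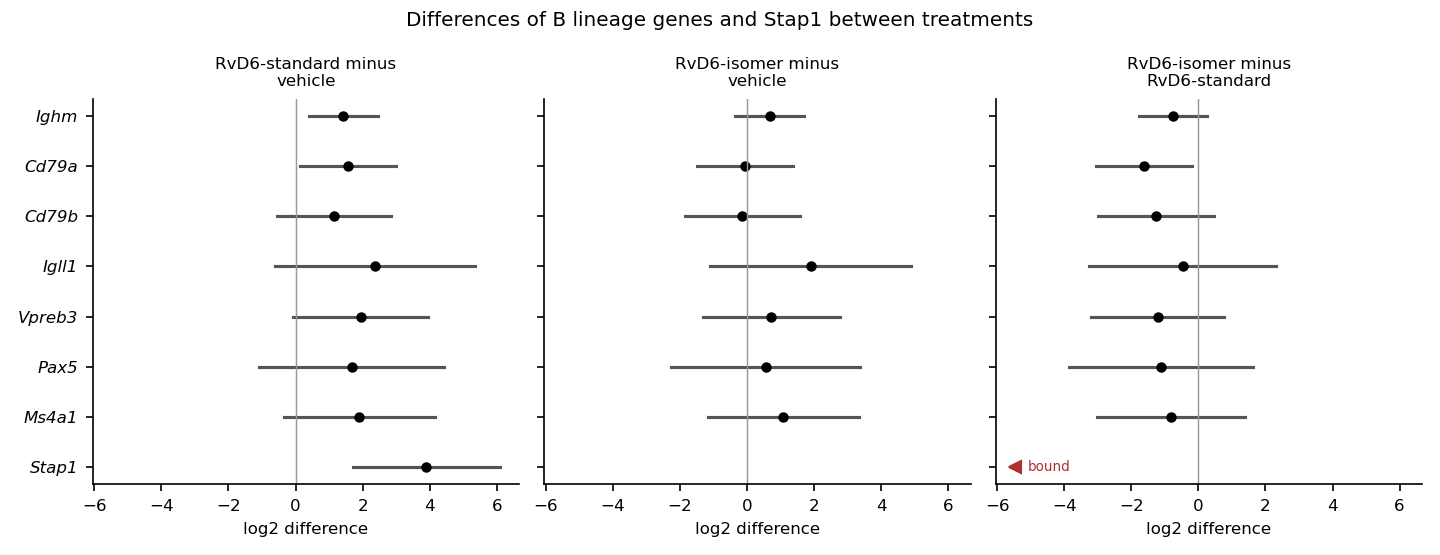
Fitted log2 differences of the 8 genes (points) with 95% intervals (lines) for the 3 comparisons, with the grey line at 0. For Stap1 the RvD6-isomer group was at 0 in every library, so no value is drawn against vehicle and the arrow against RvD6-standard gives the bound of 44.1-fold, while the 7 B lineage genes lie to the right of 0 for RvD6-standard minus vehicle and to the left for RvD6-isomer minus RvD6-standard.

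The B lineage genes shared their highest libraries. RvD6-standard ganglion 10 and RvD6-isomer ganglion 15 each took 6 of the 21 places among the top 3 of the 7 genes, RvD6-standard ganglion 8 took 4, ganglion 6 took 3, and vehicle ganglion 4 and RvD6-standard ganglion 7 took 1 each. Summed over the 7 genes, levels were 10.8 to 89.9 CPM (median 31.5) in vehicle, 70.4 to 183.4 (median 87.9) in RvD6-standard and 29.0 to 162.9 (median 33.2) in RvD6-isomer ganglia. Without Ighm the ranges were 3.34 to 29.5, 15.9 to 55.1 and 4.35 to 47.8 CPM, so the overlap did not come from Ighm alone. All 7 genes were counted in each of the 5 RvD6-standard ganglia and in ganglion 15, and 4 to 6 of them in every other ganglion.

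The direction between RvD6-isomer and vehicle depended on single libraries. With all ganglia 5 of the 7 differences were positive (median 0.68). Without RvD6-isomer ganglion 15 only 2 were positive and the median was -0.56, with Cd79b at -1.75 and Igll1 at -1.98. Without vehicle ganglion 4 all 7 were positive (median 1.17). RvD6-isomer minus RvD6-standard stayed negative for all 7 genes when any of ganglia 4, 10 or 15 was left out, with a median of -1.12 in the full set, -0.68 without ganglion 10 and -2.13 without ganglion 15. RvD6-standard minus vehicle likewise stayed positive for all 7, with a median of 1.67 in the full set, 1.37 without ganglion 10 and 2.09 without ganglion 4. For Cd79a this difference was 1.57 with and 2.55 without ganglion 4, and for Pax5 1.67 with and 4.63 without it.

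Across the 15 libraries, after removal of the group means, each B lineage gene correlated with the other 6 at a median Pearson r of 0.24 (Ms4a1) to 0.61 (Ighm) of log2 CPM. For Stap1 the r with the 7 genes ran from -0.51 to 0.28 with a median of 0.14. Stap1 had no count in any RvD6-isomer ganglion, so its r within groups rests on the vehicle and RvD6-standard ganglia. With the group means kept, the medians were 0.41 (Ms4a1) to 0.74 (Ighm) for the B lineage genes. The r of Stap1 then ran from 0.12 to 0.71 with a median of 0.52, inside that range of medians. All of these points share libraries and depths, and the sparse genes add counting noise, so the values are descriptive. The tested genes most like Ighm within groups were Sphk1 (r = 0.90), Slc40a1 (0.89) and Klf1 (0.88), and those most like Cd79b were Fcna (0.87), Klf1 (0.87) and Ighm (0.84). Klf1 is an erythroid transcription factor and Slc40a1 encodes the iron exporter ferroportin. Cd79a was closest to Trim10 (0.87), Il1f9 (0.86) and Ddx39 (0.84). Among the genes nearest to Pax5 were Ccdc191 (0.89) and Il21r (0.88). Igll1 was closest to Siglec1 (0.84), Cxcl12 (0.83) and Dek (0.82), Vpreb3 to Ptbp1 (0.90) and Gm12355 (0.88), and Ms4a1 to Cdca4 (0.90), Lpxn (0.86) and Hist1h4i (0.85). Stap1 was closest to Sort1 (0.88), Ppp1r26 (0.85) and Eea1 (0.85). Klf1 and Fcna were among the 5 nearest genes of both Ighm and Cd79b. Cd79a, Igll1, Vpreb3, Pax5, Ms4a1 and Stap1 each shared none of their 5 nearest genes with another member, so this did not set Stap1 apart. With the group means kept, the genes most like Stap1 were Jmjd1c (0.89), Gm6522 (0.88), Ctsk (0.88), Ccr2 (0.87) and Myl9 (0.87), all at n = 15.

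Other genes of the lineage were read from 5 lists with 59 genes, none of them a member, of which 42 were tested. For RvD6-standard minus vehicle 40 of the 42 differences were positive with a median of 1.35, where the median of all genes tested was 0.02. Those at an unadjusted p under 0.05 numbered 15 higher and 0 lower, against 7.63% of all genes higher, and 11 had all 5 RvD6-standard ganglia above all vehicle ganglia (2.15% of all genes). None passed the adjusted threshold of edgeR (0.0% of all genes), and DESeq2 called 1 of 51, Lyn (1.92% of all genes with an adjusted p). The lists were written with earlier results known and a gene counted mainly in RvD6-standard ganglia could pass the filter through that group alone, so these counts are a description. For RvD6-isomer minus vehicle the median was 0.24, with 26 positive, 16 negative, 0 called by edgeR (0.67% of all genes), 1 higher and 1 lower at the unadjusted level, and 1 of 16 called by DESeq2, Ebf1 (8.13%). For RvD6-isomer minus RvD6-standard the median was -1.27 and 38 of 42 were negative. There 9 were lower and 1 higher at an unadjusted p under 0.05 (4.64% of all genes were lower), 1 had all ganglia lower (1.1%), edgeR called 0 (0.235%) and DESeq2 1 of 52, Fcgr2b (0.936%). Without ganglion 15 the lower ones numbered 24 and edgeR called 4, namely Syk, Fcgr2b, Igkc and, named after its values were seen, Siglecg, a lectin that dampens receptor signalling. In the same fit the calls over all genes went from 39 to 156. The share of all genes that were lower at the unadjusted level was not worked out for that fit, so nothing is read from the 24.

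Of the 18 genes that act at the B cell receptor, 16 were tested, and all 16 were positive for RvD6-standard minus vehicle (median 1.46). Lyn, a kinase that phosphorylates the signalling chains, ranged from 2.73 to 8.38 CPM (median 5.73) in vehicle, 12.7 to 23.4 (median 18.9) in RvD6-standard and 4.62 to 23.8 (median 6.60) in RvD6-isomer ganglia. Its difference between RvD6-standard and vehicle was 1.62 (SE 0.41, adjusted p = 0.131 in edgeR and 0.0121 in DESeq2). Syk, the kinase recruited next, ranged from 1.15 to 3.01, 6.17 to 19.2 and 0.128 to 12.5 CPM, with a difference of 2.41 (SE 0.79, adjusted p = 0.199 in edgeR, and 0.0461 without ganglion 15). For both kinases the RvD6-standard ganglia did not overlap vehicle. Fcgr2b, the inhibitory Fc receptor, was at 7.41 to 21.5 CPM in RvD6-standard and 3.90 to 7.25 CPM in RvD6-isomer ganglia, a difference of -1.46 (SE 0.34, adjusted p = 0.105 in edgeR and 0.00596 in DESeq2) with no overlap. Ptpn6, the phosphatase SHP-1, had means of 5.55 ± 5.41, 17.4 ± 5.91 and 7.42 ± 6.62 CPM (SD, n = 5). These 4 genes are also used by myeloid cells.

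Of the 13 transcription factors of the lineage listed, 10 were tested. All 10 differences were positive for RvD6-standard minus vehicle (median 0.82). For RvD6-isomer minus RvD6-standard 9 were negative and 1, Ebf1, was positive (median -0.88). Ebf1, which acts with Pax5 in early B cells and is also used by other cell types, was the most counted at 81.2 ± 8.22 CPM in vehicle, 84.2 ± 6.38 with RvD6-standard and 104.7 ± 7.59 with RvD6-isomer (SD, n = 5). Its RvD6-isomer ganglia (95.04 to 113.3 CPM) were above all others, with a difference from vehicle of 0.37 (SE 0.12, adjusted p = 0.139 in edgeR and 0.0141 in DESeq2), so the order of its groups was not that of the 7 B lineage members. Spib ranged from 0 to 1.79, 2.17 to 9.89 and 0 to 3.398 CPM in vehicle, RvD6-standard and RvD6-isomer, and Spi1, which encodes PU.1, from 0 to 4.67, 6.00 to 11.4 and 1.79 to 13.6 CPM. RvD6-standard minus vehicle was 3.00 (SE 1.06, adjusted p = 0.232, edgeR) for Spib and 1.81 (SE 0.72, adjusted p = 0.295) for Spi1. Foxo1 had 31.5 ± 6.08, 35.9 ± 7.40 and 35.1 ± 13.2 CPM, differences within the SD.

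Precursor genes were near the limit of counting. Of the pre-B receptor and recombination genes only Il7r, the receptor for interleukin 7, passed the filter (0 to 2.75, 0 to 2.92 and 0 to 2.95 CPM). Named after their values were seen, Vpreb1, the partner of Igll1 in the surrogate light chain, had 0 to 5 counts in vehicle, 5 to 17 in RvD6-standard and 0 to 14 in RvD6-isomer ganglia, and the recombinase gene Rag1 had at most 2, 8 and 2 counts. Vpreb2 and Rag2 had no count in vehicle or RvD6-isomer ganglia and at most 2 and 4 counts in an RvD6-standard ganglion. The summed level of these 6 genes was 0 to 2.75, 1.19 to 9.74 and 0 to 7.93 CPM, and 7.93 was in ganglion 15, against at most 0.512 in ganglia 11 to 14.

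Mature and secreting B cells have their own genes. Igkc, the kappa light chain constant region, ranged from 5.14 to 65.7 CPM (median 8.49) in vehicle, 24.7 to 105.1 (median 100.4) in RvD6-standard and 3.61 to 75.4 (median 5.17) in RvD6-isomer ganglia. Ighd, the delta chain of mature naive cells, had 0 to 0.621, 0.974 to 9.89 and 0 to 4.76 CPM, so RvD6-standard lay above vehicle in all ganglia, with a difference of 3.50 (SE 1.205, adjusted p = 0.223, edgeR). Cd37, a tetraspanin, had medians of 1.12, 5.66 and 2.82 CPM. Among the class-switched chains, Igha, the IgA constant region, had 0.604 to 3.90, 7.71 to 40.0 and 0 to 20.8 CPM. Ighg1 and Ighg2b, constant regions of IgG, had means of 4.93 ± 7.13 and 8.99 ± 10.1 CPM in vehicle, 18.6 ± 14.6 and 23.4 ± 20.5 with RvD6-standard and 0.858 ± 1.21 and 4.39 ± 5.38 with RvD6-isomer. Ighg2c and Prdm1, named after their values were seen, were the 2 of the 9 plasma cell genes tested with a negative difference between RvD6-standard and vehicle. Ighg2c, also an IgG constant region, had 13.0 ± 8.23, 12.3 ± 10.1 and 5.10 ± 2.34 CPM, a difference of -0.08 (SE 0.62), and Prdm1, a transcription factor of secreting cells, had 1.69 ± 0.846, 0.925 ± 0.843 and 1.27 ± 1.22 CPM, a difference of -0.87 (SE 0.90). For RvD6-isomer minus RvD6-standard Ighg1 was at -4.59 (SE 1.31, adjusted p = 0.239, edgeR). Xbp1, a factor of secreting cells that is used in other tissues too, differed by 0.01 (SE 0.23) between RvD6-standard and vehicle. The 348 variable segments of immunoglobulin genes summed to 3.32 to 75.0, 23.7 to 108.9 and 3.76 to 61.4 CPM, highest in ganglia 4, 10 and 15 of their groups, which also led for most B lineage members.

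**Figure D3:**
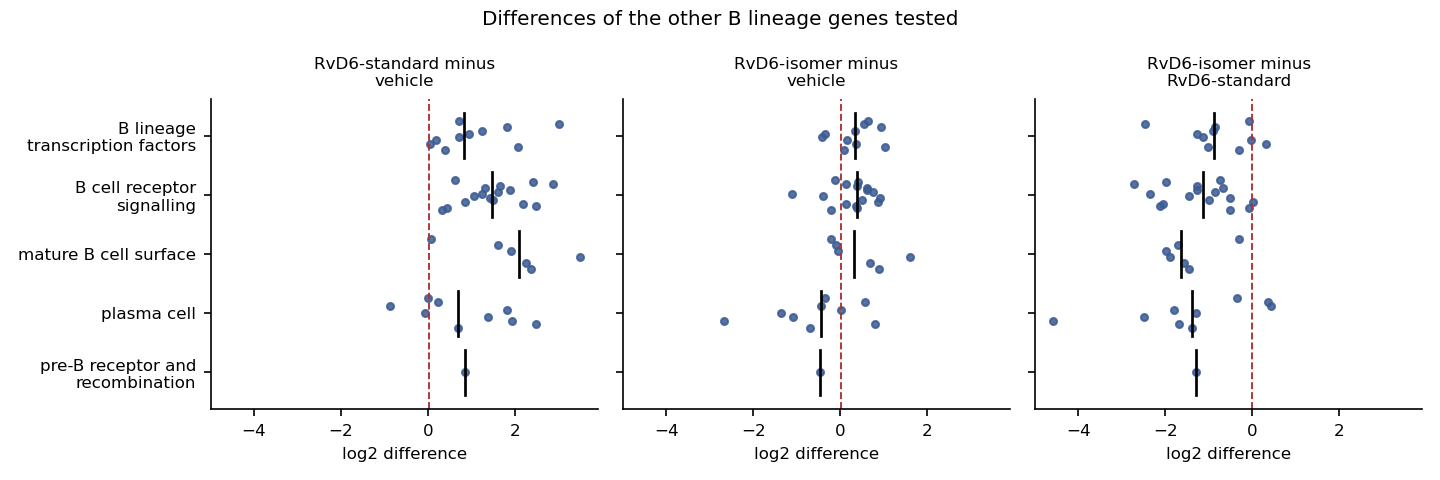
Fitted log2 differences of the 42 other B lineage genes tested, 1 point per gene, by list and comparison, with black lines at the list medians and the dashed line at the median of all genes tested. The 16 receptor signalling genes lie to the right of 0 for RvD6-standard minus vehicle (median 1.46), and 38 of the 42 genes lie to the left for RvD6-isomer minus RvD6-standard.

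Genes of other blood cells were high in the same libraries as the B lineage genes. Of 16 granulocyte precursor genes, such as Ngp, Ltf and S100a9, none was at 0 in every library, and the summed level was 165.0 to 864.5 CPM in vehicle, 976.3 to 3119 in RvD6-standard and 84.4 to 2398 in RvD6-isomer ganglia. All 15 that were tested were higher with RvD6-standard than with vehicle at an unadjusted p under 0.05 (7.63% of all genes), with 0 called by edgeR and 2 by DESeq2 (1.92%). Of 16 erythroid genes, led by the globins Hba-a1, Hbb-bs and Hbb-bt, 15 were tested, 13 were higher at that level, 0 were called by edgeR and 2 by DESeq2, with the same shares of all genes as background. Their sums were 2386 to 5089, 5809 to 10740 and 940.0 to 12120 CPM. The highest RvD6-isomer value of both lists was in ganglion 15, and the highest vehicle value in ganglion 4. Cell cycle genes, such as Mki67, Top2a and Rrm2, summed to 18.2 to 86.3, 92.4 to 312.2 and 16.2 to 237.9 CPM, megakaryocyte genes such as Ppbp to 21.95 to 67.1, 75.9 to 182.3 and 15.7 to 210.5 CPM, and bone genes such as Ibsp to 16.4 to 34.2, 35.0 to 86.5 and 19.5 to 93.3 CPM. Their part in the levels of the B lineage genes was not tested.

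T cell markers were sparse. The 13 genes summed to 3.11 to 10.7, 0.542 to 12.7 and 2.46 to 12.2 CPM, the groups overlapped throughout, and Lck was the only one tested. The 7 NK cell genes, with Nkg7 and Ncr1 tested, summed to 0.917 to 5.57, 5.27 to 25.2 and 0.935 to 10.2 CPM. Macrophage genes (10, led by Csf1r, C1qb and C1qc) summed to 97.6 to 138.8, 90.8 to 173.8 and 83.2 to 143.9 CPM, and these sums overlapped as well. For RvD6-standard minus vehicle 7 of the 10 were positive and 3 negative. In edgeR 3 were higher at an unadjusted p under 0.05 (7.63% of all genes) and 0 were called, and DESeq2 called 1 (1.92%). Named after its values were seen, Cd68 was at 2.87 to 8.36 CPM in vehicle and 10.1 to 22.35 CPM with RvD6-standard, without overlap. Its difference was 1.45 (SE 0.40). Muscle and pituitary genes were also counted. The 6 skeletal muscle genes, such as Acta1, Myh4 and Ckm, summed to 46.9 to 169.9, 98.0 to 2249 and 35.0 to 61.7 CPM, with the highest values in RvD6-standard ganglia 8 and 9. Pituitary genes (7, such as Gh, Pomc and Prl, with Lhb at 0 in every library) summed to 9.97 to 3746, 226.2 to 2301 and 19.9 to 657.0 CPM. The sums of the sensory neuron, satellite glia (3649 to 4707, 3335 to 4029 and 3189 to 4781 CPM, with S100b and Fabp7 among them), Schwann cell (13530 to 21210, 11650 to 17650 and 12690 to 21190 CPM, led by Pmp22, Mbp and Prx) and endothelial genes (87.5 to 162.3, 104.6 to 134.2 and 106.7 to 129.0 CPM, led by Cldn5, Kdr and Pecam1) overlapped between all groups. For the sensory neuron sum RvD6-standard reached the vehicle range only through ganglion 8 (14270 CPM). Single genes did not all overlap. S100b was at 905.9 to 1070 CPM with RvD6-standard and 1142 to 1483 CPM in vehicle. Prx was at 337.8 to 477.3 CPM with RvD6-isomer and 196.8 to 299.7 CPM in vehicle. All 10 sensory neuron genes had a negative difference for RvD6-standard minus vehicle (median -0.35), 5 of them at an unadjusted p under 0.05 and 0 called by edgeR or DESeq2. Of all 16567 genes tested, 2256 were under that level in either direction, and 1264 of these were higher. Whether any of these lists bears on the B lineage genes or Stap1 was not tested.

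**Figure D4:**
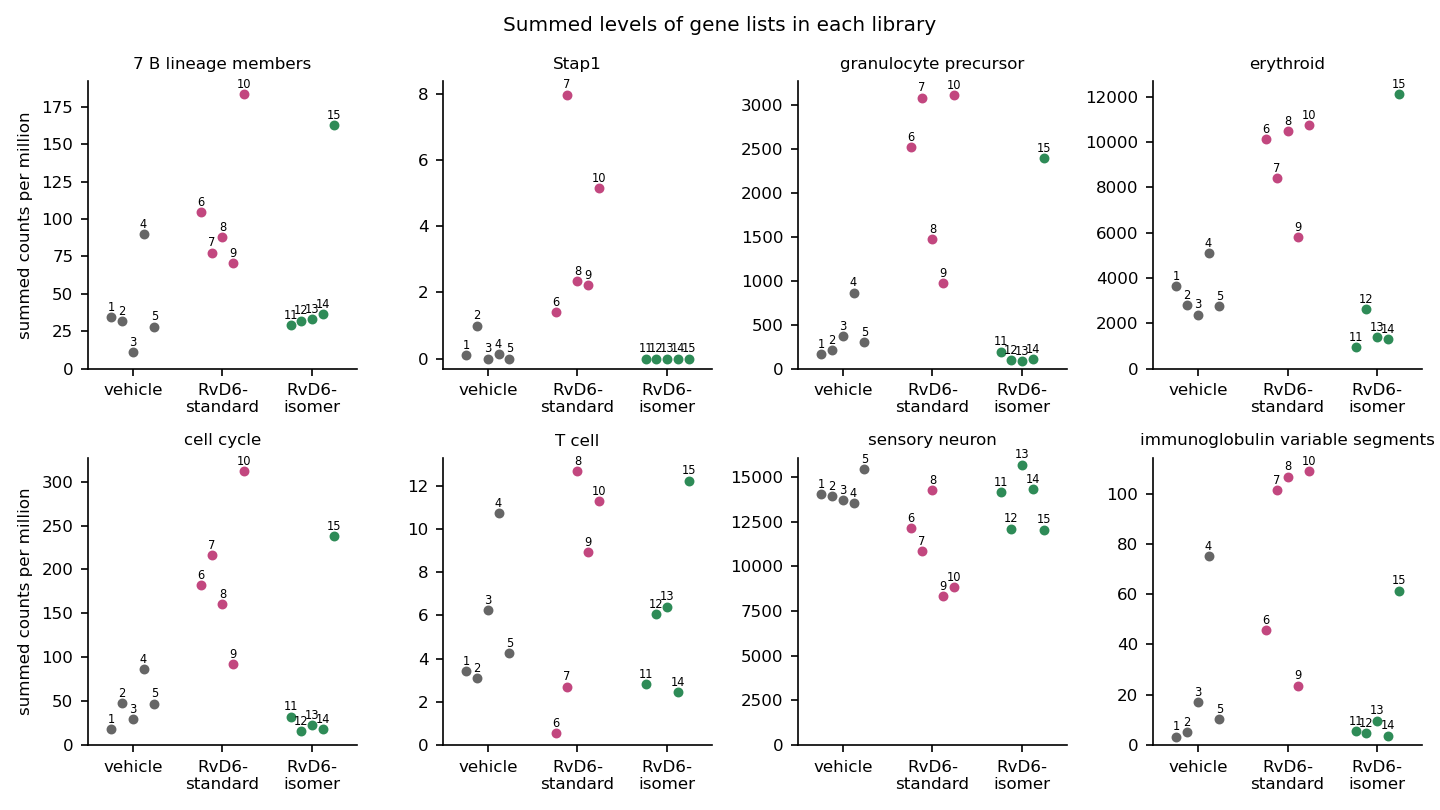
Summed level in CPM (linear axes) of the 7 B lineage genes, Stap1 and 6 gene lists in every library, with replicate numbers above the points. Ganglia 4, 10 and 15 are each the highest of their own group for the B lineage genes and the variable segments. Ganglion 15 is high for the granulocyte precursor (2398 CPM), erythroid (12120 CPM) and cell cycle (237.9 CPM) lists while Stap1 is at 0 there.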

How the data were processed

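The RNA of 15 TG was measured by RNA sequencing with an adapted Smart-seq2 protocol, in which poly(A) RNA is copied and amplified without keeping its strand. The deposited values are raw read counts per gene. The authors aligned the reads to GRCm38 with Rsubread under R 3.6.1 and counted exon reads with featureCounts on GENCODE M22 (Subread 1.6.5 in the submitters' processing notes, version 1.5.0-p1 in the file header). The header sets no strand or multiple-mapping option, so reads that mapped to several places or lay on exons of 2 genes were not counted. Symbols and positions came from GENCODE M21 and named 99.7% of the identifiers.

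Groups were taken from the treatment labels. Counts were tested in edgeR 4.0.16 (limma 3.58.1, R 4.3.3) with TMM scaling, its filter on low counts (10 counts, total of 15) and the quasi-likelihood F test with 15 samples in 3 groups. Adjustment was by Benjamini-Hochberg over all genes tested, at 0.05. Summaries used Python 3.11.15, pandas 2.3.3, NumPy 2.4.6, SciPy 1.17.1 and matplotlib 3.10.9. Correlations used log2 CPM with a prior count of 2. The steps were tested on simulated data. The members, the gene lists and the rules were chosen with earlier results of these data known. Named were every member, per B lineage list up to 3 genes with the smallest p and 2 with the highest mean, per other list up to 3 with the highest mean, and the 5 genes most like each member, of which some are not reported here. Alternatives were RLE scaling, no filter, 10 counts in every sample, DESeq2 1.42.0, the 2 groups compared alone, and each sample left out. Totals of 4125962 to 9903396 counts limit the precision of genes with few counts, floors of 3 counts cover counting error only, and the 95% intervals of fitted differences include the spread between samples.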

Additional observations from a re-analysis of the deposited data

Results flagged for a closer look

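In 26 of 84 groups of 5 libraries, over the 8 genes and the summed gene lists, the highest library stood far from the other 4 (a gap to the nearest above 0.71 of the whole range). For normally distributed values chance gives this in about 1 in 20 groups. The values here are CPM that were not tested for normality, and the groups share libraries, so they are not independent.

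RvD6-isomer ganglion 15 accounted for 13 of them. It was the highest of its group at 115.1 CPM for Ighm (others 23.8 to 30.1), 23.3 CPM for Cd79b (others 0.768 to 2.81) and 8.38 CPM for Igll1 (others 0 to 0.384). Its summed levels stood out for the pre-B receptor and recombination genes (7.93 CPM), B cell receptor signalling (140.0 CPM), mature B cell surface (101.3 CPM) and immunoglobulin variable segments (61.4 CPM). They stood out too for NK cell (10.2 CPM), granulocyte precursor (2398 CPM), erythroid (12120 CPM), megakaryocyte (210.5 CPM), cell cycle (237.9 CPM) and bone genes (93.3 CPM).

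Vehicle ganglion 4 was far above the other vehicle ganglia for Cd79a (5.22 CPM, others 0.573 to 1.49), Cd79b (19.7 CPM, others 0.892 to 5.62) and Pax5 (2.61 CPM, others 0 to 0.124). The same ganglion stood out for mature B cell surface genes (79.6 CPM), immunoglobulin variable segments (75.0 CPM) and skeletal muscle genes (169.9 CPM). Vehicle ganglion 2 was the highest for Igll1 (1.74 CPM) and Stap1 (0.994 CPM), vehicle ganglion 3 for pituitary genes (3746 CPM) and vehicle ganglion 5 for sensory neuron (15460 CPM) and satellite glia genes (4707 CPM). RvD6-standard ganglion 10 stood out for NK cell (25.2 CPM) and pituitary genes (2301 CPM). No cause of these values was tested.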

How the results depend on the processing

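No paired analysis was possible because replicate numbers 1 to 15 each belong to 1 group. For all genes tested, edgeR called 0 for RvD6-standard minus vehicle, 111 for RvD6-isomer minus vehicle and 39 for RvD6-isomer minus RvD6-standard. In that order DESeq2 called 369, 920 and 185, a minimum of 10 counts in every sample gave 24, 315 and 23, no filter gave 56 and 59 for the first and the third, and the fit of the 2 groups alone gave 38 and 17 for these. Leaving out each ganglion gave 0 to 51 (51 without RvD6-isomer ganglion 15, 17 without RvD6-standard ganglion 7, 1 without vehicle ganglion 2), 0 to 229 and 2 to 156 calls. The second of these ranges ran from 0 without RvD6-isomer ganglion 11 to 229 without RvD6-standard ganglion 9, with 6 to 13 without any 1 vehicle ganglion, 9, 68 and 168 without RvD6-isomer ganglia 14, 13 and 12. The third ran from 2 without RvD6-isomer ganglion 11, 13 or 14 to 156 without ganglion 15, with 13 without RvD6-standard ganglion 8 or 9 and 25 without ganglion 10. Among the other B lineage genes edgeR called 0 in each comparison and DESeq2 1 in each (Lyn, Ebf1 and Fcgr2b). The 2 groups alone gave 1 (Syk) for RvD6-standard minus vehicle, and leaving out each ganglion gave 0 to 2, 0 and 0 to 4 calls, the 2 (Lyn and Syk) and the 4 both without ganglion 15. The causes were not tested. Stap1 did not pass the filter of the fit with RvD6-isomer and RvD6-standard alone. Of the members' log2 differences under the alternatives, 436 moved by less than the SD between replicates of that gene on the log2 CPM scale and 13 by more. Changes of sign were confined, in the alternatives run, to RvD6-isomer minus vehicle for Cd79a, Cd79b, Ighm, Igll1 and Pax5. With 10 counts in every sample only Ighm of the 8 members was left, so no such value exists for the others. With few counts per library, absence of a B lineage gene or of Stap1 cannot be told from a low level.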
